A study of Mus musculus with 24 samples.

Results

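Solute carriers are the largest group of membrane proteins that move small molecules, and their genes carry the symbol Slc followed by a family number. The genes described here were chosen by symbol and level from a table of normalized RNA sequencing (RNA-seq) values. A gene was a member if its symbol began with Slc and a digit and if its log2 value was at least 6 in at least 3 of the 24 libraries. This selected 169 of the 294 rows with such a symbol, in a table of 24273 rows. Of the members, 161 were at 6 or more in all 24 libraries and 8 in fewer. Slc39a4 and Slc4a3 reached 6 in 10 and 6 of the libraries labelled FosKO and in 0 of LysM-Cre, so that they were selected through one genotype alone, and counts of differences between genotypes at a time are over the other 167. Counts of LPS responses, and of differences in response, are over all 169. The members included 3 that do not code for a carrier and share the symbol only through a neighbor or partner, namely Slc7a6os, Slc4a1ap and the scaffold gene Slc9a3r1, which left 166 carriers. All 169 were annotated as protein-coding and all passed the low-value filter of the test across genes.

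The cells were bone marrow-derived macrophages (BMDMs), macrophages grown in culture from mouse bone marrow, on a C57BL/6 background. One genotype was labelled FosKO, in which LysM-Cre, a Cre recombinase gene at the Lyz2 locus that is active in myeloid cells, was meant to delete floxed Fos. The control carried LysM-Cre, and the study's text adds 1 floxed Fos allele to it whereas the series' design text does not. Both genotypes therefore carried Cre, and Fos was meant to be lost only where Cre was active. After a night in medium with little serum, cells were left untreated (0 h) or were given 100 ng/ml lipopolysaccharide (LPS) of Salmonella, a ligand of TLR4, and collected 0.5, 1 or 2 h later. There were 8 groups, with 3 libraries in each that the study calls biological replicates.

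Carriers decide which nutrients, metals and waste products cross the plasma membrane and the membranes of lysosomes, mitochondria and the secretory pathway. In activated macrophages they are known for feeding arginine to nitric oxide synthesis, cystine to glutathione synthesis and glucose to glycolysis. They are also known for exporting lactate and for keeping iron and zinc away from microbes. AP-1, the dimeric transcription factor to which FOS contributes, and NF-kB are both engaged by TLR4 signaling.

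Several features of the whole series touch the values below. Ribosomal 18S RNA (Rn18s-rs5) split the libraries, with 5 of them, all from 0.5 or 1 h, between 16.65 and 17.00 and 19 between 18.57 and 19.39. For the genotype differences of members printed at these times the values within each set are therefore added. The low-18S set, however, holds 1 library of each genotype at 0.5 h and, at 1 h, 1 labelled FosKO and 2 LysM-Cre. The high-18S set holds 1 LysM-Cre library at 1 h. Relative to LysM-Cre, Fos itself was 1.49 higher (log2, adjusted p = 1.15e-10) in untreated cells labelled FosKO, then -0.77, 1.64 and 3.29 along the LPS course. With 1 value for the whole gene, transcripts that lack the floxed exons count too, so Fos is no check of the label, and FosKO below means only that libraries carried it. Lyz2 was higher by between 4.89 and 5.17 at the 4 times. The 8 macrophage markers were all measured and summed to between 147268 and 196971 on the linear scale in every library. This sum includes a second, weak row of Itgam, between 5.06 and 6.17 (log2). That row was at 0.29 in FosKO minus LysM-Cre at 0 h and was called at no time. The Itgam value given below is of the stronger row. Single macrophage markers went both ways between genotypes. In FosKO minus LysM-Cre (log2), Mertk was higher by between 0.89 and 1.65 and Fcgr1 by between 0.63 and 0.85 at the 4 times, and at 0 h Spi1 (0.09) and Cd68 (0.21) were higher and Adgre1 (-0.15), Csf1r (-0.14), Itgam (-0.19) and Cd14 (-0.22) lower. Of the neutrophil markers, Ly6g and Elane were at the floor of the table, while Ngp, Ltf, S100a8 and S100a9 ran from 3.06 to 5.83 (log2) and carried the sum. This sum was lower in the libraries labelled FosKO: it ran from 80.4 to 110.0 in LysM-Cre and from 55.5 to 65.9 in FosKO at 0 h, and from 131.4 to 172.8 and from 77.8 to 89.2 at 2 h. The sum of 5 dendritic cell markers ran from 39.3 to 41.4 in LysM-Cre and from 39.3 to 49.3 in FosKO at 0 h, and from 127.0 to 135.7 and from 99.1 to 102.1 at 2 h, with Zbtb46 at -0.96 between genotypes at 2 h (adjusted p = 0.000121) and Flt3 at 1.82 or less in every library. T cell markers summed to between 14.1 and 15.9 in LysM-Cre and between 19.2 and 22.0 in FosKO at 0 h, and to between 35.9 and 52.1 and between 50.1 and 54.6 at 2 h, a sum carried by Lck, while Cd3e, Cd3d, Cd3g, Trac and Cd8a were at 0.66 or less (log2). Among the other lists, fibroblast markers summed to between 25.5 and 32.0 in LysM-Cre and between 17.5 and 24.2 in FosKO at 0 h, the mast cell marker Kit differed by -0.43, -0.53, -0.53 and -0.27 at the 4 times in order, the last not called, and the B cell marker Cd79b by -0.12, -0.38, -0.29 and -0.26, the first not called. The part of these differences in the results below was not tested. In bulk RNA, fewer cells with a transcript and less transcript per cell cannot be told apart.

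The level of a carrier was compared between genes only per kilobase of exon. On this scale, log2 per kilobase of the mean over all libraries, members ranged from 2.71 for Slc4a3, a bicarbonate and chloride exchanger, to 12.27 for Slc6a6, the taurine transporter, with a median of 7.32. The next highest, named for their level, were Slc25a5, an ADP and ATP exchanger of mitochondria, at 11.40, Slc15a3, an endolysosomal transporter of peptides and histidine, at 11.12, the zinc importer Slc39a1 at 10.98 and Slc3a2, the heavy chain of several amino acid exchangers, at 10.84. Classes were set by whole families and are called by the main substrate of the family. By this rule the members comprised 33 mitochondrial carriers, 26 metal transporters, 23 transporters of nucleosides and nucleotide sugars, 22 of amino acids, 22 of inorganic ions, 21 of lipids, vitamins, peptides and organic ions, and 19 of sugars and monocarboxylates. Single members carry other substrates than their class name says, such as Slc43a3, a purine nucleobase carrier counted with amino acids, and the aromatic amino acid carrier Slc16a10 and the vitamin carrier Slc5a6, both counted with sugars. The mitoferrin Slc25a37 was counted with mitochondrial carriers. The rule used these levels, and at its threshold the third-highest value was 6.25 in Slc39a4, 6.26 in Slc4a3 and 6.26 in Slc35g1 on the inside, and 5.97 in Slc15a2 and 5.95 in Slc9a5 on the outside.

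To ask how carriers responded to LPS, each time was compared with 0 h within a genotype. In both genotypes Slc7a2 rose most at 2 h and Slc7a11 came next, followed by Slc2a6 and Slc39a14, whose order differed between the genotypes. The largest rises were thus in carriers of arginine, cystine, hexoses and zinc. Slc26a11 fell most in both genotypes, and in LysM-Cre the iron exporter Slc40a1 came next. The response was slight at 0.5 h, where Slc25a25, Slc20a1 and Slc38a2 rose in both genotypes, and it was broad at 2 h.

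In LysM-Cre at 0.5 h, 7 members were called higher, at an adjusted p under 0.05 over all 13901 tested genes, and 1 lower. The background was 5.09% of all genes called higher and 2.15% called lower, against 4.14% and 0.592% of members. In the libraries labelled FosKO 5 members were called higher (background 4.45%) and none lower (background 1.47%). At an unadjusted p under 0.05 there were 24 and 9, and the share of all genes at that threshold was not counted. These small counts depended on the scaling, since quantile normalization gave 4 higher and 4 lower in each genotype, and median centering 5 and 2 in LysM-Cre. Under quantile normalization calls over all genes in either direction went from 1007 to 1262 in LysM-Cre and from 823 to 1080 in FosKO. Without the low-18S libraries, the LysM-Cre count went from 8 to 4, as it did without replicate 2 or 3 at 0.5 h or replicate 2 at 0 h, and to 5 without replicate 3 at 0 h. The FosKO count went to 3 without replicate 1 at 0 h or replicate 3 at 0.5 h. Libraries of the same number deviated together between these FosKO groups (correlations of 0.191, 0.134 and 0.269), and with a replicate block within genotype the FosKO counts were 11 higher and 0 lower, beside 6.06% and 2.42% of all genes.

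At 1 h, 38 members were called higher and 25 lower in LysM-Cre, against backgrounds of 19.2% and 16.5%, which were 22.5% and 14.8% of the members. The libraries labelled FosKO gave 40 higher and 23 lower, against backgrounds of 17.6% and 15%. With quantile normalization the member counts were 32 higher and 46 lower in LysM-Cre and 34 and 44 in FosKO. The median of all genes also moved, from 0 to -0.026 in LysM-Cre and from 0.002 to -0.03 in FosKO. Shares of all genes by direction were not counted under this scaling. Calls over all genes in either direction then went from 4970 to 5447 in LysM-Cre and from 4534 to 4986 in FosKO. With the high-18S libraries alone both LysM-Cre counts were smaller, but that set holds 1 LysM-Cre library at 1 h.

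At 2 h, 118 members were called in LysM-Cre (69.8%, background 60.8% in either direction). Of these, 60 were higher (35.5% of members, background 30.6%) and 58 lower (34.3% of members, background 4200 of 13901 genes). In the libraries labelled FosKO 63 were higher and 57 lower, 37.3% and 33.7% beside 32.6% and 29.5%. With quantile normalization this became 49 and 67, while calls over all genes in either direction went from 8636 to 8429. The median of all genes went from 0.005 to -0.063, and their shares by direction were not counted under this scaling. Of the members, 54 were higher in both genotypes (32%, background 26.2%) and 45 lower in both (26.6%, background 23.7%). The median change of the members was 0.004 in LysM-Cre and -0.01 in FosKO, against -0.016 and 0.005 for all tested genes. Carriers thus moved in both directions, with a median near that of all genes.

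A change of at least 2-fold at 2 h was seen in 10 members called higher and 2 called lower in LysM-Cre, and in 11 and 1 in FosKO. The backgrounds for such calls were 5.43% and 2.63% in LysM-Cre and 5.83% and 2.73% in FosKO. Slc7a2, Slc7a11, Slc2a6, Slc39a14, Slc25a37, Slc30a4, Slc44a1 and Slc4a7 passed it in both genotypes, Slc7a7 and Slc31a2 in LysM-Cre, and Slc2a1, Slc16a1 and Slc23a2 in FosKO.

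**Figure D1:**
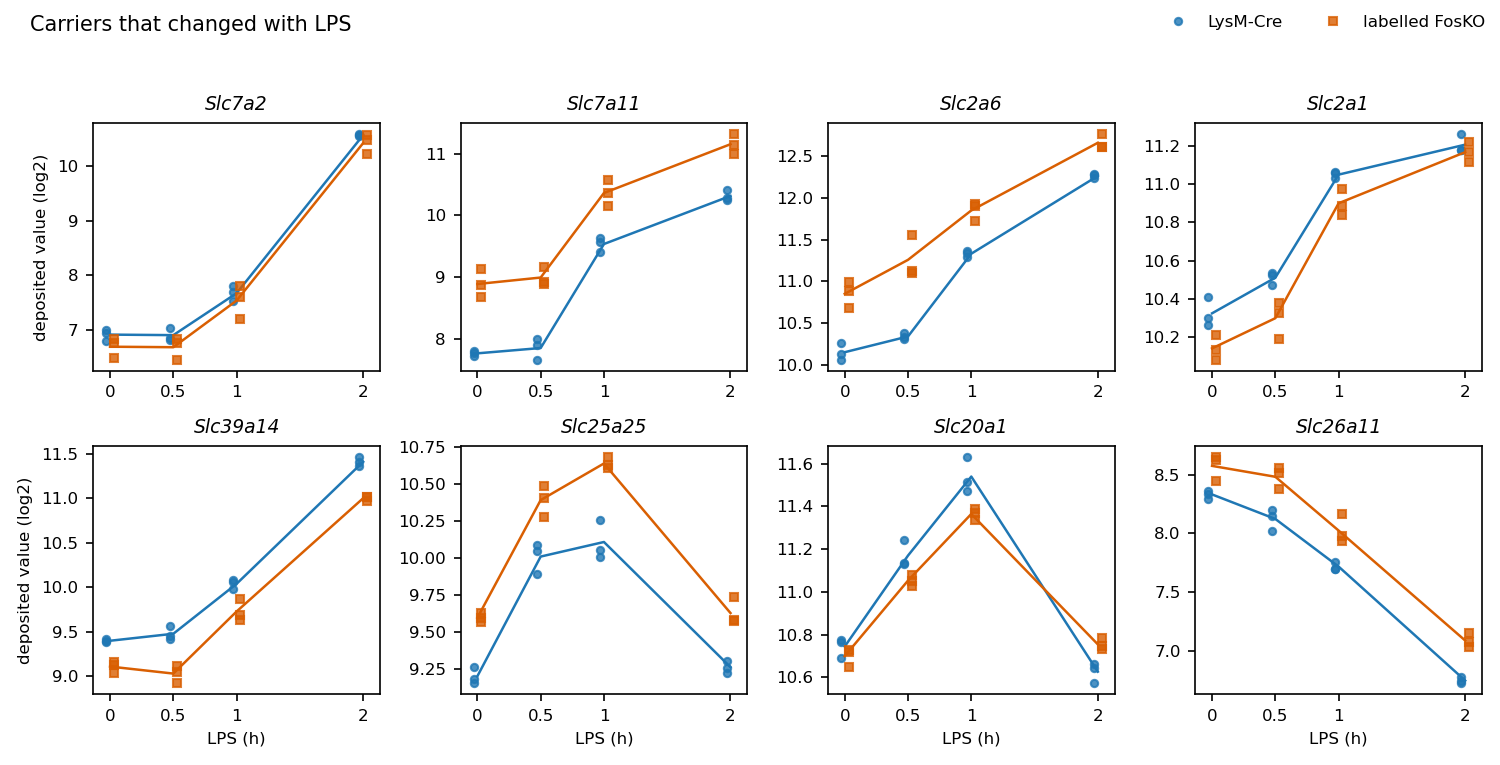
Deposited log2 values of 8 carriers (vertical axes, each with its own range) against time in LPS (h), with 1 point per library, circles for LysM-Cre and squares for libraries labelled FosKO, and lines through the means of 3. Slc7a2 climbed mostly between 1 and 2 h, Slc7a11 between 0.5 and 1 h, and Slc25a25 and Slc20a1 peaked at 1 h.

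Amino acid carriers held the largest responses. Slc7a2 codes for CAT2, a carrier of arginine and other cationic amino acids, and lies at chr8:40862396-40922308 (plus strand, GRCm38, as are all coordinates here). LysM-Cre libraries began at 6.80, 7.01 and 6.95, reached 7.80, 7.53 and 7.70 after 1 h and ended at 10.54, 10.58 and 10.56 after 2 h. Those labelled FosKO began at 6.49, 6.77 and 6.84, reached 7.21, 7.61 and 7.81, and ended at 10.22, 10.47 and 10.56. Within each genotype all 3 values at 2 h lay far above those at 0 h, whereas the genotypes overlapped at 0 h. The rise at 2 h was 3.64 ± 0.13 (log2, standard error), or 12.5-fold, in LysM-Cre (adjusted p = 1.41e-15) and 3.72 ± 0.13, or 13.1-fold, in FosKO. The rises differed by 0.07 ± 0.19 (adjusted p = 0.854), and Slc7a2 was called at none of the 4 times between genotypes.

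Slc7a11 (chr3:49892526-50443614, minus strand) codes for xCT, which brings in cystine in exchange for glutamate, and it was the member that differed most between genotypes before LPS. Untreated, it stood at 7.80, 7.77 and 7.72 in LysM-Cre against 8.67, 9.12 and 8.86 in FosKO. At 2 h the values were 10.28, 10.40 and 10.25, and 11.00, 11.32 and 11.14. The lowest FosKO library was above the highest LysM-Cre library at every time. LPS raised it by 1.77 ± 0.12 at 1 h and 2.55 ± 0.12 at 2 h in LysM-Cre, and by 1.48 and 2.27 in FosKO. Those rises were not called different, at -0.30 ± 0.16 for 1 h and -0.29 ± 0.16 for 2 h.

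The sequence before the Slc7a11 start is shown because it held a pair of matches to TGATGNAA, the amino acid response motif bound by ATF4 with C/EBP factors (CARE), which are in capitals. It is the 250 bases before the start in RefSeq, on GRCm38.p6, chr3:50443614-50443863, minus strand. The matches lay 66 to 59 bases before the start on the gene's strand and 47 to 40 bases before it on the other.
Slc7a11: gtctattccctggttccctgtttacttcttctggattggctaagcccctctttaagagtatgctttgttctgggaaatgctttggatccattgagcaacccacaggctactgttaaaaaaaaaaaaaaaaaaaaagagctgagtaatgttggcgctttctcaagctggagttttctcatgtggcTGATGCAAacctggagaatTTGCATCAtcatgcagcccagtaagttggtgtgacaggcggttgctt

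The partner and neighbors of these carriers followed in part. Slc3a2, the heavy chain of xCT and of several other exchangers, rose at 2 h by 0.58 ± 0.04 in LysM-Cre and 0.42 in FosKO, although under quantile normalization the FosKO value was 0.02. Slc7a1 (CAT1), the constitutive arginine carrier, rose by 0.81 ± 0.04 and 0.57. Slc7a5 (LAT1), which takes up leucine and other large neutral amino acids, rose by 0.75 ± 0.07 and 0.40. The glutamine carrier Slc38a2 was early, going from 11.95, 11.90 and 11.97 at 0 h to 12.29, 12.34 and 12.36 at 0.5 h and 12.74, 12.77 and 12.76 at 1 h in LysM-Cre. Its rise was 0.39 ± 0.03, 0.81 and 0.30 at the 3 times in order, the last being 0.02 under quantile normalization. Slc43a2 (LAT4), a uniporter of neutral amino acids, fell by 0.49 ± 0.03 and 0.44 at 2 h. In LysM-Cre at 2 h, 10 of the 22 amino acid carriers were called higher and 6 lower (45.5% and 27.3%), and in FosKO 11 and 6 (50% and 27.3%). Of all 13901 tested genes, 30.6% were called higher in LysM-Cre and 4200 lower, and 32.6% and 29.5% in FosKO, and the class counts that follow at 2 h stand beside these.

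Genes of arginine and polyamine metabolism that are no carriers were set beside these. At 2 h, 9 of the 11 measured (81.8%) were called higher and none lower in each genotype, where 30.6% and 32.6% of all genes were called higher in LysM-Cre and FosKO. The counts of the lists that follow stand beside the same shares. Nos2, the inducible nitric oxide synthase, rose by 4.61 ± 0.29 in LysM-Cre and 3.84 in FosKO, and Odc1, the first enzyme of polyamine synthesis, by 0.97 and 0.55. Of the 12 genes of glutathione synthesis and of the NRF2 program, 7 were called higher and 1 lower in LysM-Cre, with the thioredoxin reductase gene Txnrd1 at 1.45 ± 0.04 and Hmox1 at -0.20. In FosKO 7 were higher and 2 lower.

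Sugar and monocarboxylate carriers split. Slc2a6 (GLUT6), a hexose carrier of intracellular membranes at chr2:27021363-27027998 (minus strand), began at 10.27, 10.13 and 10.06 in LysM-Cre, reached 11.29, 11.34 and 11.37 after 1 h and ended at 12.24, 12.28 and 12.27 after 2 h. In the libraries labelled FosKO it went from 10.68, 10.89 and 10.99 to 12.60, 12.61 and 12.76 at 2 h. The groups did not overlap at either time or between times, and the rise was 2.11 ± 0.09 (4.32-fold) in LysM-Cre and 1.81 in FosKO.

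Slc2a1 (GLUT1, chr4:119108711-119137983, plus strand), the main glucose importer of the plasma membrane, moved from 10.41, 10.26 and 10.30 to 11.03, 11.06 and 11.06 at 1 h and 11.26, 11.18 and 11.18 at 2 h in LysM-Cre. Its rise was 0.73 ± 0.05 at 1 h and 0.88 at 2 h, and 0.76 and 1.03 in FosKO. At 0.5 h it was called in LysM-Cre at 0.19, but that call was lost without replicate 2 or 3 at either time, under quantile normalization and with the high-18S libraries alone, with adjusted p between 0.0563 and 0.112. Slc16a3 (MCT4), which exports lactate, rose by 0.31 ± 0.05 and 0.34 at 2 h. Slc37a2, an exchanger of sugar phosphates in the endoplasmic reticulum, fell by 0.58 ± 0.05 and 0.38. Of the 19 carriers of this class, 6 were called higher and 9 lower in LysM-Cre, and 7 and 9 in FosKO. Among 14 genes of glucose use that are no carriers, 7 were called higher and 1 lower in LysM-Cre and 11 and 1 in FosKO, with hexokinase 2 (Hk2) at 0.98 ± 0.06 in LysM-Cre.

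Among metal carriers, an importer and a vesicle loader of zinc rose and the exporter of iron fell. Slc39a14 (ZIP14), an importer of zinc and iron, was at 9.38, 9.42 and 9.40 at 0 h and 11.37, 11.40 and 11.46 at 2 h in LysM-Cre, and at 9.16, 9.13 and 9.04, then 11.01, 10.97 and 11.02 in FosKO. The rise was 2.01 ± 0.06 (4.03-fold) and 1.89. Slc30a4 (ZnT4), which loads zinc into vesicles, rose by 1.29 ± 0.05 and 1.28. Slc25a37, mitoferrin 1, which takes iron into mitochondria, rose by 1.39 ± 0.06 and 1.51, and the copper carrier Slc31a2 by 1.15 ± 0.09 and 0.67.

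Slc40a1 (ferroportin, chr1:45908068-45926523, minus strand), the iron exporter, fell. In LysM-Cre it went from 10.75, 10.43 and 10.58 to 9.74, 9.38 and 9.58 after 2 h, and in FosKO from 11.32, 11.34 and 10.99 to 10.52, 10.61 and 10.39. The fall was -1.02 ± 0.12 and -0.71 ± 0.12, and these were not called different (0.31 ± 0.17, adjusted p = 0.259). Slc11a1 (NRAMP1), the metal pump of phagosomes, was at 0.09 ± 0.04 in LysM-Cre at 2 h, a call that reversed to -0.21 under quantile normalization and was lost without replicate 3 at 0 h, replicate 1 at 2 h or replicate 2 at 2 h and with the groups compared alone, with adjusted p between 0.0573 and 0.192. Of the 26 metal carriers, 13 were called higher in each genotype, and 6 were lower in LysM-Cre and 5 in FosKO. Of 12 measured genes of iron and zinc handling that are no carriers, 5 were called higher and 3 lower in LysM-Cre, led by the metallothionein gene Mt2 at 2.36 ± 0.18, and 6 and 2 in FosKO.

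In LysM-Cre, Slc25a25, Slc20a1 and Slc35b2 rose at 1 h with no call of a rise at 2 h. Slc25a25, a mitochondrial carrier that exchanges ATP-magnesium for phosphate, went from 9.16, 9.19 and 9.27 to 9.89, 10.05 and 10.09 at 0.5 h and 10.06, 10.01 and 10.26 at 1 h, and was back at 9.26, 9.31 and 9.23 at 2 h. In FosKO it went from 9.63, 9.57 and 9.59 to 10.28, 10.41 and 10.49, then 10.61, 10.63 and 10.68, and 9.58, 9.57 and 9.74. Its rise at 0.5 h, 0.81 ± 0.06 and 0.79, was the largest of any member at that time. Slc20a1 (PiT-1), a phosphate importer, rose by 0.43 ± 0.04 at 0.5 h and 0.80 at 1 h, and was at -0.12 at 2 h, a call lost without replicate 3 at 2 h or under median centering (adjusted p of 0.0691 and 0.0564). The third, Slc35b2, which supplies the sulfate donor to the Golgi and was named after its values were seen, rose by 0.16 ± 0.04 at 1 h, a call lost under quantile normalization and with the high-18S libraries alone.

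Among other classes, the anion transporter Slc26a11 showed the largest fall, from 8.30, 8.36 and 8.34 to 7.70, 7.76 and 7.70 at 1 h and 6.73, 6.77 and 6.74 at 2 h in LysM-Cre, which is -1.59 ± 0.07, a 3-fold decrease. In FosKO it fell by 1.49. The lysosomal nucleoside carrier Slc29a3 fell by 0.73 ± 0.07 and 0.97, and the glycine carrier of mitochondria Slc25a38 by 0.76 ± 0.06 and 0.71. Slc44a1, a choline carrier, rose by 1.57 ± 0.04 and 1.58, and Slc4a7, which brings in sodium and bicarbonate, 2.83-fold in LysM-Cre and 2.53-fold in FosKO. Both were named after their values were seen. Slc45a4 fell by 0.83 ± 0.05 and 0.75, the thiamine carrier Slc19a2 by 0.65 ± 0.06 and 0.78, and Slc35c1, which carries GDP-fucose into the Golgi, by 0.53 ± 0.05 and 0.79. Slc27a1, a fatty acid transport protein, fell by 0.24 ± 0.03 and 0.26. Slc25a10, the dicarboxylate carrier of mitochondria, rose by 0.57 ± 0.04 and 0.26, and the citrate carrier Slc25a1 was at 0.11 ± 0.04 and 0.21, calls that reversed under quantile normalization (-0.08 and -0.01). Slc7a6os, which is no carrier, was the 1 member called lower in LysM-Cre at 0.5 h, at -0.21 ± 0.06, a call lost with the groups compared alone and without replicate 1 or 2 at either time. Nucleoside and nucleotide sugar carriers had the lowest class median in LysM-Cre at 2 h, -0.18, with 7 of 23 called higher and 12 lower, and mitochondrial carriers had 11 of 33 higher and 12 lower.

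**Figure D2:**
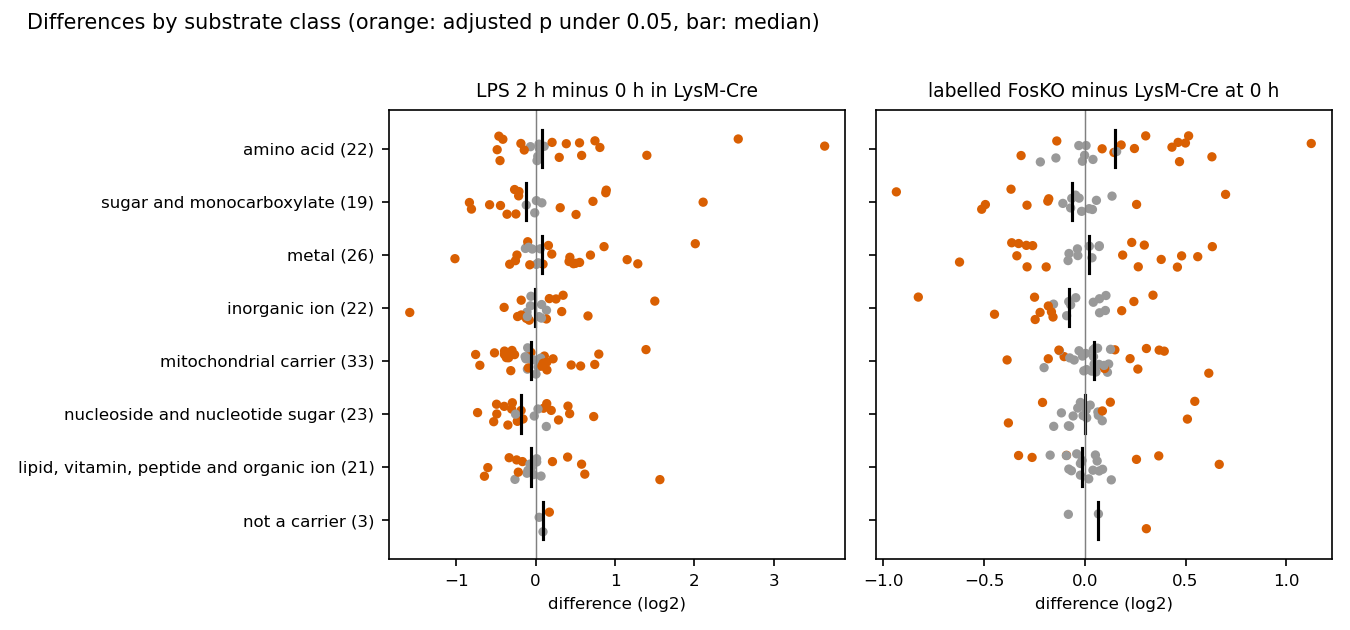
Log2 difference of each member (horizontal axes, 1 point per gene) by substrate class, for 2 h of LPS in LysM-Cre on the left and for libraries labelled FosKO minus LysM-Cre at 0 h on the right, where Slc39a4 and Slc4a3 are left out (class sizes on the axis include them). Orange points had an adjusted p under 0.05 and black bars are class medians, which stayed between -0.18 and 0.15 in both panels.

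The second comparison asked which carriers differed between the genotypes at each time. Before LPS, the libraries labelled FosKO had more Slc7a11, Slc2a6, Slc15a3 and Slc40a1 and less Slc2a3, Slc24a3, Slc30a4 and Slc5a3. Each of these was called in the same direction at all 4 times. Most differences were under 2-fold, and Slc7a11 alone exceeded it at 0 h.

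At 0 h, 42 of the 167 members were called higher and 34 lower in FosKO (25.1% and 20.4%), beside backgrounds of 19.5% and 15.9%. The counts were 54 and 42 at 0.5 h, 32.3% and 25.1%, beside 21.2% and 19.7%. At 1 h they were 43 and 35, 25.7% and 21%, beside 18% and 15.9%. With the high-18S libraries alone both counts were smaller, but that set holds 1 LysM-Cre library at 1 h. At 2 h they were 50 and 53, 29.9% and 31.7%, beside 24.4% and 20.3%. The median difference of the members stayed between -0.006 and 0.016. Over the 161 members at 6 or more in all libraries, calls higher numbered 42, 52, 42 and 48 along the course and calls lower 34, 42, 35 and 52. Nearly all members were well expressed, whereas the tested genes included weak ones, and the part of level in these shares was not tested.

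At all 4 times, 26 members were called higher in FosKO (15.6%, background 11.4%) and 22 lower (13.2%, background 7.11%), and the same numbers were found among the 161. Slc7a2 was among the members called at no time, and some members were called higher at some times and lower at others.

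**Figure D3:**
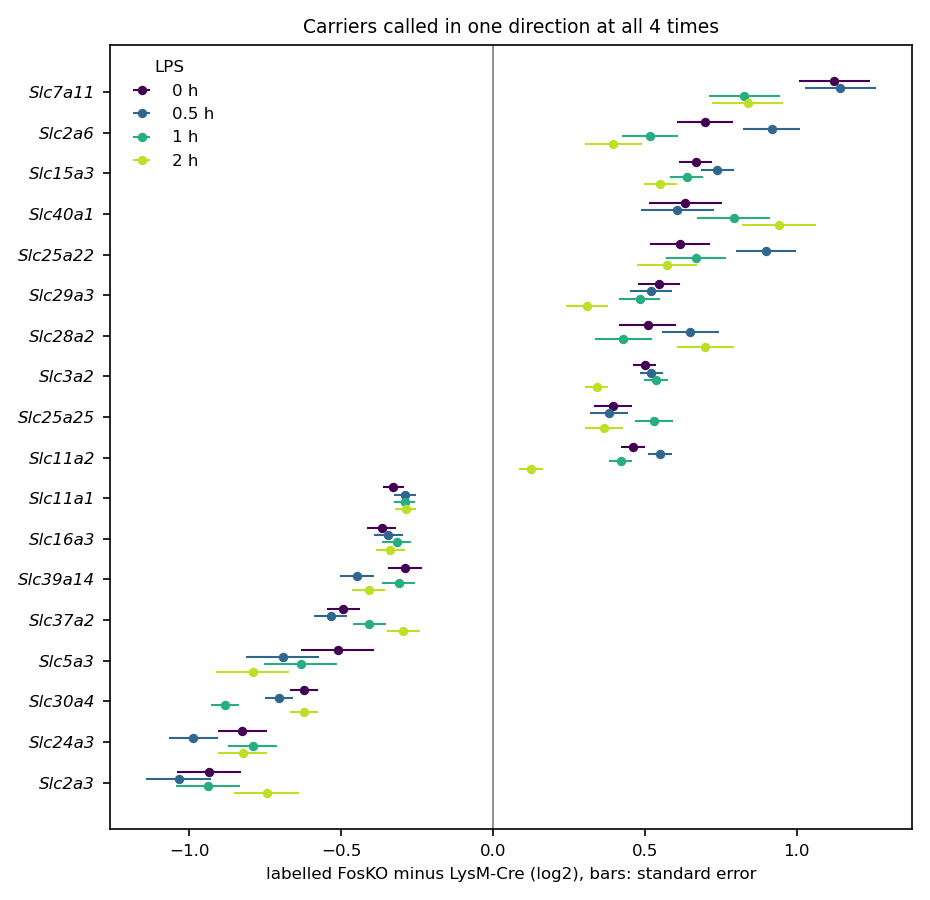
Difference between libraries labelled FosKO and LysM-Cre (log2, horizontal axis) for 18 carriers called in one direction at all 4 times, with 1 point per time and bars for the standard error of the fit (3 libraries per group). Slc7a11 lay between 0.83 and 1.14, and Slc2a3 between -1.04 and -0.74.

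Of the 22 amino acid carriers, 12, with Slc43a3 among them, were higher and 2 lower in FosKO at 0 h (54.5% and 9.09%, beside 19.5% and 15.9% of all genes). Slc7a11 was higher by 1.12 ± 0.12 (2.18-fold, adjusted p = 2.64e-07) before LPS and by 1.14, 0.83 and 0.84 along the course. In the low-18S and high-18S libraries the differences were 1.23 and 1.099 at 0.5 h and 0.66 and 0.84 at 1 h. Slc3a2 was at 12.23, 12.21 and 12.19 in LysM-Cre and 12.64, 12.74 and 12.75 in FosKO at 0 h, with no overlap, a difference of 0.50 ± 0.04 that was 0.34 after 2 h. Slc7a5 was 0.46 ± 0.07 higher before LPS and 0.58 after 1 h (0.575 in the low-18S and 0.654 in the high-18S libraries), but was not called after 2 h (0.11). Slc7a1 was higher by 0.30 ± 0.04 at 0 h, and Slc1a4, a carrier of small neutral amino acids, by 0.47 ± 0.10. Slc1a5, the glutamine carrier ASCT2, went the other way, from 9.90, 9.87 and 9.90 to 9.68, 9.64 and 9.41, at -0.32 ± 0.06.

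Of the 19 sugar and monocarboxylate carriers, 2 were higher, 7 lower and 10 not called at 0 h (10.5% higher and 36.8% lower, beside 19.5% and 15.9% of all genes), with a class median of -0.065. Slc2a3 (GLUT3), a glucose importer of high affinity, stood at 7.26, 7.39 and 7.42 in LysM-Cre and 6.42, 6.53 and 6.31 in FosKO. Every FosKO library lay below every LysM-Cre library of its time, and the difference was -0.94 ± 0.11 (1.91-fold, adjusted p = 8.85e-07) at 0 h and -0.74 at 2 h. Within the 18S sets the differences were -1.33 (low) and -0.89 (high) at 0.5 h and -1.03 and -0.90 at 1 h. Slc2a6 was the opposite case, higher by 0.70 ± 0.09 before LPS and by 0.92, 0.52 and 0.40 along the course, with 0.72 in the low-18S and 1.01 in the high-18S libraries at 0.5 h, and 0.37 and 0.62 at 1 h. Slc2a1 was lower, at -0.18 ± 0.05 and -0.21 at the first 2 times (at 0.5 h -0.34 in the low-18S and -0.15 in the high-18S libraries), and was not called at 2 h (-0.04). Slc5a3, the importer of myo-inositol, was at 7.06, 7.12 and 7.21 against 6.70, 6.54 and 6.61 at 0 h and 7.97, 8.02 and 8.06 against 7.09, 7.41 and 7.18 at 2 h. The differences were -0.51 ± 0.12 and -0.79. Slc16a3 differed by -0.37 ± 0.05 at 0 h and Slc37a2 by -0.49 ± 0.05. Of the 14 glucose-use genes, 3 were higher and 7 lower in FosKO at 0 h, Pfkfb3 being at 0.84 ± 0.09 and Eno1 at -0.29.

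Among metal carriers, 9 of 25 were higher and 8 lower in FosKO at 0 h (36% and 32%, beside the same shares of all genes). Slc40a1 was higher by 0.63 ± 0.12 at 0 h and 0.94 ± 0.12 (1.92-fold) at 2 h, when its lowest FosKO value of 10.39 exceeded the highest LysM-Cre value of 9.74. The importer Slc11a2 (DMT1) went from 10.88, 10.84 and 10.82 to 11.25, 11.34 and 11.32, a difference of 0.46 ± 0.04, and Slc11a1 was at -0.33 ± 0.04. Slc30a4 stood at 9.95, 9.92 and 10.02 against 9.27, 9.35 and 9.40, a difference of -0.62 ± 0.05 at 0 h that was -0.88 at 1 h (-0.92 in the low-18S and -0.83 in the high-18S libraries), and Slc39a14 was lower, at -0.29 ± 0.06 at 0 h and -0.41 at 2 h. Slc30a1 (ZnT1), the zinc exporter of the plasma membrane, was higher by 0.48 ± 0.07 at 0 h. The heme carrier Slc48a1 was lower (-0.29 ± 0.05). Slc39a4, which is left out of these counts, ran from 5.81 to 6.33 in FosKO and from 5.38 to 5.73 in LysM-Cre, a description with no test.

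Inorganic ion carriers had 3 of 21 higher and 8 lower at 0 h (14.3% and 38.1%, beside 19.5% and 15.9% of all genes). Slc24a3, an exchanger of sodium for calcium and potassium, was at 8.44, 8.39 and 8.38 in LysM-Cre and at 7.66, 7.59 and 7.49 in FosKO, with differences of -0.83 ± 0.08 (1.77-fold) before LPS and -0.82 after 2 h. At 1 h it was -0.625 in the low-18S and -0.862 in the high-18S libraries.

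Of the 23 nucleoside and nucleotide sugar carriers, 4 were higher and 2 lower at 0 h (17.4% and 8.7%, beside 19.5% and 15.9% of all genes), with a median of -0.001. Of the 21 carriers of lipids, vitamins, peptides and organic ions, 3 were higher and 3 lower (14.3% each), under the shares of all genes. Slc15a3 was at 13.10, 13.03 and 12.98 against 13.65, 13.68 and 13.78 at 0 h, higher by 0.67 ± 0.05 (1.59-fold), and by 0.55 at 2 h. Its relative Slc15a4 was called at no time, with 0.02 ± 0.05 at 0 h. Among nucleoside carriers, Slc29a3 was higher by 0.55 ± 0.07 and Slc28a2, which concentrates purine nucleosides, by 0.51 ± 0.09 at 0 h and 0.70 at 2 h.

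Mitochondrial carriers had 8 of 33 higher and 4 lower at 0 h (24.2% and 12.1%, beside 19.5% and 15.9% of all genes). Slc25a22, a glutamate importer of mitochondria, was at 9.73, 9.63 and 9.57 against 10.04, 10.35 and 10.39, higher by 0.62 ± 0.10 at 0 h and 0.90 at 0.5 h. Its difference was 0.71 in the low-18S and 0.99 in the high-18S libraries at 0.5 h, and 0.45 and 0.82 at 1 h. Slc25a25 was 0.39 ± 0.06 higher before LPS and 0.53 after 1 h (0.47 in the low-18S and 0.60 in the high-18S libraries), while its rises at 0.5 h differed by -0.01 ± 0.09 between genotypes, which was not called. Slc25a13, the aspartate and glutamate exchanger citrin, was at 10.41, 10.46 and 10.45 against 10.19, 10.00 and 9.97 and was lower, at -0.39 ± 0.05.

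Class counts along the course stand beside the shares of all genes, which for 0.5, 1 and 2 h were 21.2%, 18% and 24.4% called higher, with 19.7%, 15.9% and 20.3% called lower. The amino acid class had 11 members called higher and 4 lower after 0.5 h (50% and 18.2%), 10 and 2 after 1 h (45.5% and 9.09%), and 8 and 5 after 2 h (36.4% and 22.7%). Sugar and monocarboxylate carriers had 2 higher and 7 lower after 1 h (10.5% and 36.8%) and 6 of each after 2 h (31.6%). Inorganic ion carriers had 4 and 9 after 1 h (19% and 42.9%) and 8 of each after 2 h (38.1%). Metal carriers had 12 higher and 10 lower after 0.5 h (48% and 40%), and 6 and 11 after 2 h (24% and 44%). Mitochondrial carriers had 14 and 5 after 0.5 h (42.4% and 15.2%), and 10 and 9 of 33 after 2 h. No test compared these shares between classes or times.

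To set the promoters beside these differences, the 250 bases before each RefSeq start (GRCm38.p6) were searched on both strands. Windows were found for 128 of the 169 members, 171 windows in all. AP-1 letters (TGACTCA or TGAGTCA) stood in 4 of them (2.34%), against 4.46% of 32851 windows of all genes, in Slc25a13, Slc37a2, Slc7a1 and Slc2a9. The interferon response letters GAAANNGAAA stood in 3 (1.75%, against 2.98%), in Slc25a22, Slc25a15 and Slc37a1. The CARE letters stood in 5 (2.92%, against 3.45%), in Slc7a11, Slc7a7, Slc50a1 and Slc9a9. Of these, Slc50a1 and Slc9a9 were called at no time between genotypes. Slc7a7 was higher in FosKO at 0.5 h (0.30, with 0.219 in the low-18S and 0.346 in the high-18S libraries) and lower at 2 h (-0.56). The NF-kB motif stood in 15 (8.77%, against 7.25%) and the antioxidant response letters TGACNNNGC in 29 (16.96%, against 10.16%). Hypoxia response letters, ACGTG or GCGTG, stood in 96 (56.14%, against 38.6%). Several of these motifs begin with the same letters, and matches were allowed to overlap. Member windows were richer in G and C, at 60.9% against 53.2%. A match is a description of the letters and not a bound site.

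The windows of 3 genes are shown because their genes differed between genotypes at all 4 times and held AP-1 or interferon response letters, which are in capitals. Slc37a2 (chr9:37255739-37255988, minus strand) and Slc25a13 (chr6:6217174-6217423, minus strand), both lower in FosKO, held TGAGTCA 107 to 101 and 130 to 124 bases before the start. Slc25a22 (chr7:141435376-141435625, minus strand, 1 of its 3 starts), higher in FosKO, held the interferon response letters 79 to 70 bases before the start. Slc7a1, also with AP-1 letters, was higher in FosKO at 0 h, so members with AP-1 letters went both ways. Of the other members with interferon response letters, Slc25a15 was called at no time. Slc37a1 was not called at 0.5 h (0.10, with -0.045 in the low-18S and 0.172 in the high-18S libraries). It was higher in FosKO at 2 h (0.54).
Slc37a2: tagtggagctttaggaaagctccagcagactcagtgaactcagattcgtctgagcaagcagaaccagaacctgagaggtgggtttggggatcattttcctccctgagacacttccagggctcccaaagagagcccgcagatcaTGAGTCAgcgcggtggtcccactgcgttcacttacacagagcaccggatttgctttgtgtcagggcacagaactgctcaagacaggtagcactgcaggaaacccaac
Slc25a13: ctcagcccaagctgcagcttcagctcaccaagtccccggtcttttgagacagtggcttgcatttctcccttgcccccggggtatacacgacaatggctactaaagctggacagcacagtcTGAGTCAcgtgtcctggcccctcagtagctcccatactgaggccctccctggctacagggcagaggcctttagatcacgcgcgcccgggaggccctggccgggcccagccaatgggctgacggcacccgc
Slc25a22: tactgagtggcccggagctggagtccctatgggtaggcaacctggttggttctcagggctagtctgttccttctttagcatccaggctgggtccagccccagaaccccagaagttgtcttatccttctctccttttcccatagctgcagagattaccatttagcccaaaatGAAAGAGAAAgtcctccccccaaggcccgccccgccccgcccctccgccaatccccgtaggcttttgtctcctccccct

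The third comparison asked whether the LPS response itself differed between genotypes. At 2 h, Slc37a3, Slc16a1, Slc12a2 and Slc23a2 responded more strongly in the libraries labelled FosKO, and Slc7a7, Slc39a13, Slc31a2 and Slc30a1 more weakly or more negatively. At 0.5 h no member was called by limma, against backgrounds of 0.0144% higher and 0.101% lower. At 1 h only Slc25a37 was called in the fit without a replicate block (background 0.489% higher and 0.727% lower). At an unadjusted p under 0.05 there were 8 of the 169 members at 0.5 h and 15 at 1 h. The share of all genes at that threshold was not counted, and the backgrounds given are for adjusted calls. A replicate block gave more calls at 1 h, with the count in the last section.

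At 2 h, 17 of all 169 members were called higher and 23 lower (10.1% and 13.6%), beside backgrounds of 7.27% and 7.7%, and neither Slc39a4 nor Slc4a3 was among them. With quantile normalization the counts were 9 and 26, while calls over all genes in either direction went from 2081 to 2002. The median of all genes went from 0.017 to -0.001, and their shares by direction were not counted under this scaling. By class, 0 of the 26 metal carriers were called higher and 6 lower, and the mitochondrial carriers had 2 higher and 8 lower of 33 and the amino acid carriers 2 and 5 of 22. Inorganic ion carriers had 5 higher and 1 lower of 22, sugar and monocarboxylate carriers 4 and 1 of 19, nucleoside and nucleotide sugar carriers 2 of each, and carriers of lipids, vitamins, peptides and organic ions 2 and 0. No test compared the classes.

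**Figure D4:**
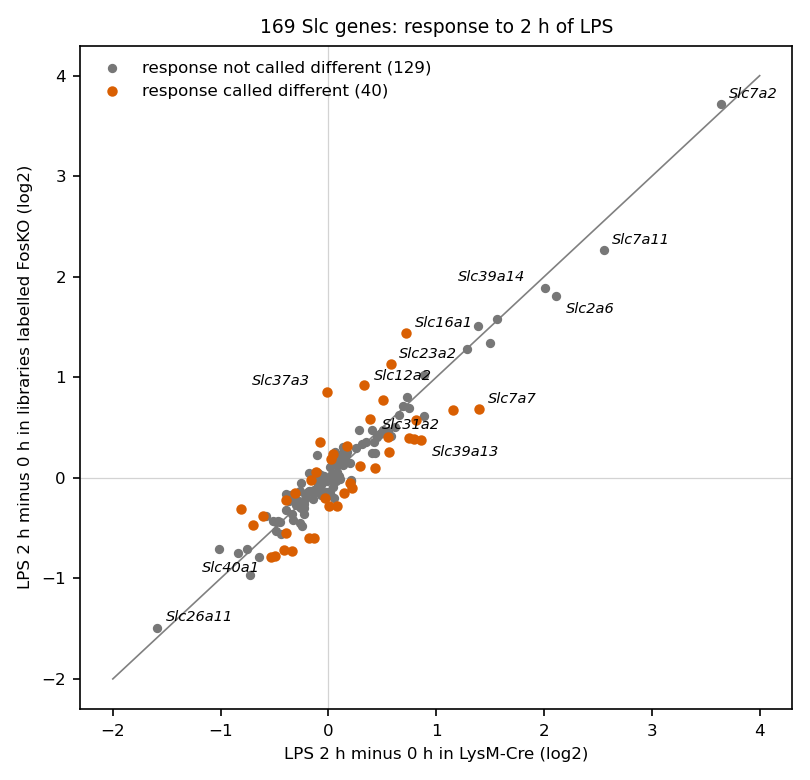
Change after 2 h of LPS (log2) in libraries labelled FosKO (vertical axis) against LysM-Cre (horizontal axis) for the 169 members, 1 point per gene, with the line of equal change. Orange marks the 40 members whose response was called different, and Slc7a2 lies at 3.64 and 3.72, close to the line.

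Slc37a3 (chr6:39334773-39377675, minus strand), a lysosomal member of the sugar phosphate exchanger family, had the largest difference. LysM-Cre libraries began at 8.96, 8.95 and 8.99, dipped to 8.64, 8.55 and 8.45 after 1 h and returned to 8.97, 8.85 and 9.04 after 2 h. In the libraries labelled FosKO it was at 8.94, 8.93 and 8.99, then 8.71, 8.66 and 8.64, and at 2 h 9.75, 9.78 and 9.89. The genotypes overlapped at 0 h and were apart at 2 h. The response was -0.01 ± 0.05 in LysM-Cre and 0.86 ± 0.05 in FosKO, a difference of 0.87 ± 0.07 (adjusted p = 3.46e-08).

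Slc16a1 (MCT1), a carrier of lactate and pyruvate, crossed over. It was lower in FosKO at 0 h, at 8.74, 8.66 and 8.54 against 8.86, 8.99 and 8.95, and higher at 2 h, at 10.16, 9.98 and 10.12 against 9.62, 9.62 and 9.72. Its response was 0.72 ± 0.06 in LysM-Cre and 1.44 ± 0.06 in FosKO. Slc23a2 (SVCT2), the vitamin C importer, was at 12.55, 12.54 and 12.53 against 12.50, 12.48 and 12.58 at 0 h, which overlapped, and at 13.12, 13.11 and 13.12 against 13.66, 13.67 and 13.61 at 2 h, which did not. The responses were 0.58 ± 0.03 and 1.13 ± 0.03. Slc12a2 (NKCC1), the sodium, potassium and chloride cotransporter, responded by 0.33 ± 0.07 and 0.93 ± 0.07.

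Slc7a7 (chr14:54369442-54417780, minus strand), the light chain of an exporter of cationic amino acids, had the most reduced response. In LysM-Cre it went from 7.99, 7.91 and 7.88 to 9.35, 9.24 and 9.39 at 2 h, and in FosKO from 7.95, 8.05 and 8.25 to 8.83, 8.66 and 8.82. It overlapped at 0 h and all FosKO values were below at 2 h. The responses were 1.40 ± 0.08 and 0.69 ± 0.08, a difference of -0.72 ± 0.11 (adjusted p = 0.000118). Slc39a13 (ZIP13), a zinc carrier of the secretory pathway, responded by 0.86 ± 0.06 and 0.38 ± 0.06.

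Slc31a2 and Slc30a1 differed mainly in where they began. Slc31a2 was at 10.24, 10.18 and 10.24 against 10.55, 10.86 and 10.93 at 0 h and at 11.30, 11.38 and 11.44 against 11.41, 11.43 and 11.52 at 2 h. Slc30a1 was at 10.01, 9.96 and 9.87 against 10.28, 10.42 and 10.57 at 0 h, and at 9.91, 9.70 and 9.85 against 9.81, 9.79 and 9.88 at 2 h. Each was apart between genotypes at 0 h and was not called at 2 h (0.08 ± 0.09 and 0.01 ± 0.07).

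**Figure D5:**
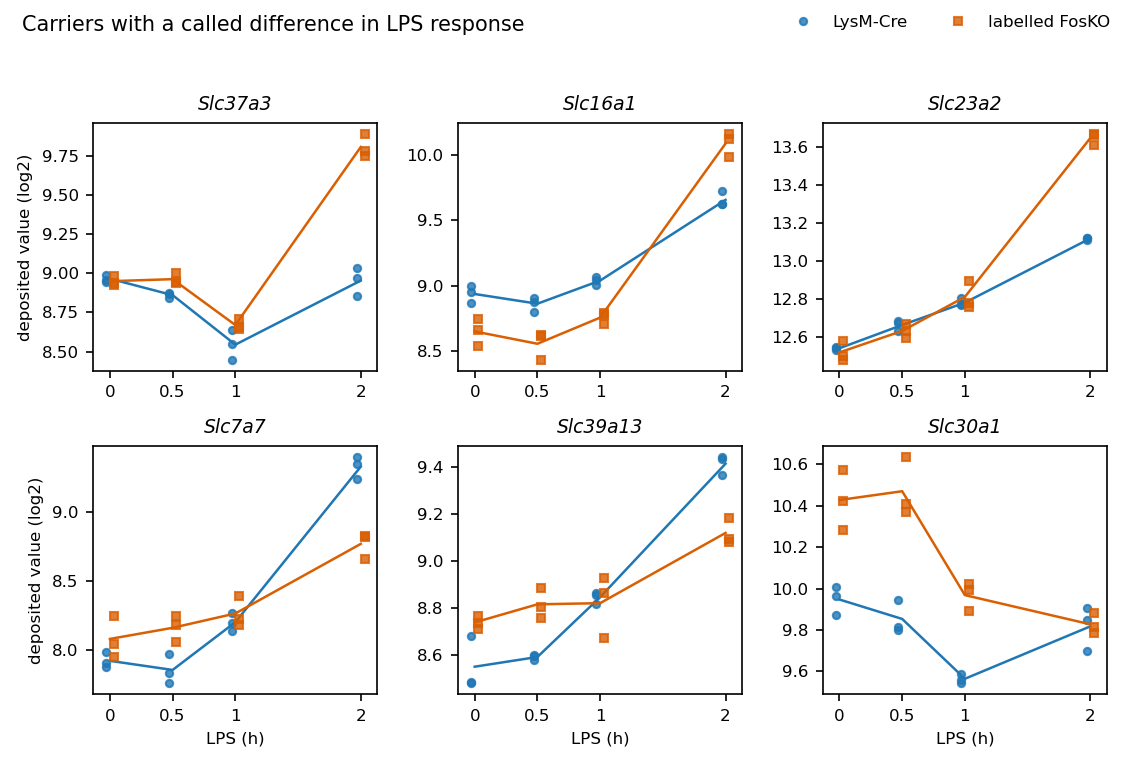
Deposited log2 values (vertical axes, each with its own range) against time in LPS (h) for 6 carriers with a called difference in response, with 1 point per library and lines through the means of 3. Slc37a3, Slc16a1 and Slc23a2 separated upward in the libraries labelled FosKO at 2 h, and Slc7a7 and Slc39a13 downward, while Slc30a1 converged.

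Slc25a51, which brings NAD into mitochondria and was named after its values were seen, rose in LysM-Cre and fell in FosKO after 2 h of LPS. It was at 0.14 ± 0.04 and -0.15 ± 0.04, and under quantile normalization its LysM-Cre value was -0.0067. Slc25a37 at 1 h was at 0.09 ± 0.06 in LysM-Cre (10.10, 9.90 and 10.02 after 9.97, 9.85 and 9.91) and 0.49 ± 0.06 in FosKO (10.30, 10.39 and 10.43 after 9.85, 9.91 and 9.88), a difference of 0.40 ± 0.09. This call was lost in the high-18S libraries (0.34) and without any of replicates 1 and 3 of LysM-Cre at 0 h, 2 and 3 of LysM-Cre at 1 h, 1 and 3 of FosKO at 0 h, and 2 and 3 of FosKO at 1 h, with adjusted p between 0.0505 and 0.122.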

How the data were processed

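RNA-seq libraries were made from BMDMs with the TruSeq kit and sequenced from a single end. Alignment with STAR 2.5.2a and counting with RSEM 1.2.31 were done by the authors, as was the normalization, with DESeq2 1.16.1 named in the submitters' processing notes, which give the build as GRCm38. The study's methods name RefSeq genes, whereas the table carries Ensembl identifiers. The deposited values are log2 values from -2.22 to 19.39 with no zeros, as a regularized log would give, which pulls weak genes toward their mean. The study gives a typical read yield but the table holds no reads for each library, so no counting interval was computed and errors rest on how far libraries of a group differ. Replicates were called biological by the study, and nothing states whether they came from separate mice.

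All 24 libraries entered one limma 3.58.1 fit (R 4.3.3) with 8 group means, 16 residual degrees of freedom and empirical Bayes variances with a trend. Genes with 2 to the power of the value at 5 or more in at least 3 libraries were tested (13901). P-values of 13 comparisons were adjusted by the Benjamini-Hochberg method over all tested genes and called under 0.05. For a single gene in groups of 3, exact permutation could not reach a p under 0.1, so none was run. A difference of 1 is a 2-fold change. The fit was tested on simulated data.

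Substrate classes were assigned by family. Coordinates, exon lengths and gene types came from the GENCODE annotation of GRCm38, where all 169 members were found, and 0 members had values identical to another row. Promoter sequences came from RefSeq (GRCm38.p6). The members, gene lists and comparisons were chosen with earlier results of these data known. Named members were 30 known transporters, the 4 largest rises and 4 largest falls among calls in each comparison, and those nearest the threshold. Genotype calls of the 2 members selected through one genotype were left out after seeing the data. One result is not reported here. Members named after their values were seen are marked so, and others were named for their level, class or promoter letters. Lists of neutrophil, T cell, B cell, dendritic cell, mast cell, fibroblast and erythroid markers were measured beside the macrophage list. The highest sums on the linear scale in any library were 172.8, 54.6, 53.8, 135.7, 40.4, 33.1 and 0.8.

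Alternatives were quantile normalization, median centering, pseudocounts of 1 and 16, no filter and a filter at 50, the compared groups alone, a replicate block, the 18S set as a term or the high-18S libraries alone, no variance trend, other level thresholds, and leaving out each library.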

Additional observations from a re-analysis of the deposited data

Results flagged for a closer look

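The LPS response of 19 results among the named members differed between the genotypes by the interaction contrast of the limma fit, at an adjusted p under 0.05. Each value is the response in the libraries labelled FosKO minus that in LysM-Cre (log2), and the 2 h contrasts share the 0 h libraries. At 1 h the single case was Slc25a37 at 0.40.

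A smaller or more negative response at 2 h was found for Slc7a7 (-0.72), Slc39a13 (-0.48), Slc31a2 (-0.48), Slc30a1 (-0.47), Slc7a5 (-0.35), Slc11a2 (-0.33), Slc25a10 (-0.30), Slc25a51 (-0.29), Slc35c1 (-0.26), Slc7a1 (-0.24) and Slc38a2 (-0.17). A larger response at 2 h was found for Slc37a3 (0.87), Slc16a1 (0.72), Slc12a2 (0.60), Slc23a2 (0.55), Slc37a1 (0.50), Slc20a1 (0.17) and Slc6a6 (0.16).

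Some of these rest on single libraries. The call for Slc7a5 was lost without replicate 2 of LysM-Cre at 0 h, of LysM-Cre at 2 h or of FosKO at 0 h, with adjusted p between 0.0611 and 0.0646, and that for Slc37a1 without replicate 1 of LysM-Cre at 0 h (0.42, adjusted p = 0.0557). The call for Slc20a1 was lost on leaving out any 1 of 6 libraries. The causes were not tested.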

How the results depend on the processing

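Of 331 calls over 54 named members, 64 were lost or reversed under at least one alternative, and none reversed on leaving out a library. The reversals came under quantile normalization: at 1 h in LysM-Cre Slc3a2 (-0.0341), Slc15a3 (-0.017) and Slc11a1 (-0.0722), at 2 h in LysM-Cre Slc25a1 (-0.0756), Slc11a1 (-0.2094) and Slc25a51 (-0.0067), at 1 h in FosKO Slc15a3 (-0.0364) and Slc6a6 (-0.1848), and at 2 h in FosKO Slc25a1 (-0.0131), Slc38a2 (-0.2115), Slc11a2 (-0.1498), Slc11a1 (-0.1817) and Slc6a6 (-0.2644). The cause was not tested. The median of all genes moved by less than 0.1 under either scaling.

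Counts of members called in either direction moved by over 1.5 times in the cases given in this section. LPS at 0.5 h in LysM-Cre gave 8, but 4 with the high-18S libraries and from 4 to 8 on leaving out a library. At 1 h it gave 63, but 41 with the high-18S libraries, which leave fewer samples. LPS at 0.5 h in FosKO gave 5, but 8 with quantile normalization, 3 with the groups compared alone, and from 3 to 7 on leaving out a library. By direction, quantile normalization moved lower calls at 1 h from 25 to 46 in LysM-Cre and from 23 to 44 in FosKO. It moved larger responses at 2 h from 17 to 9. Shares of all genes by direction were not counted under that scaling. Fewer members were called lower between genotypes at 1 h with the high-18S libraries, which hold 1 LysM-Cre library at that time. The difference in response at 1 h gave 1, a call lost with the high-18S libraries, and gave from 0 to 1 on leaving out a library.

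Replicate numbers did not pair the samples throughout: deviations of same-numbered libraries correlated at between -0.53 and 0.71, and in 2 of 28 pairs of groups, FosKO at 0.5 h with 0 h and with 1 h, all 3 exceeded 0.1, although 15 of 24 libraries were closest to one of their own number. A replicate block kept all 331 calls, gave 3 for the difference in response at 1 h, also when set within genotype, and within genotype gave 11 for LPS at 0.5 h in FosKO. For that difference at 1 h, the share of all genes called with a block was not counted. Reads of each library are not in the table, and if values were shrunk, changes of weak members are understated.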
